A study of Mus musculus with 12 samples.

Results

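The comparison asked whether clones of a macrophage line that lack a CRISPR-targeted element respond differently to an inflammatory stimulus than wild-type clones. Its members were all 12 libraries of the 12 in the series: 6 clones, each measured once in medium and once after stimulation. Within each clone the stimulated level was set against the medium level, and the 3 responses of the KO clones were compared with the 3 responses of the WT clones. This difference between responses is called the interaction below, and a positive value means a higher response in KO clones.

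The cells were RAW264.7, an established mouse macrophage line. WT clones 1, 2 and 3 and KO clones 1A, 1B and 2 were single-cell clones selected by GFP and puromycin, and the KO clones carried a deletion that the labels name NRE1 without expanding it. In published work from the same field the name stands for a regulatory element of Nampt, the gene of nicotinamide phosphoribosyltransferase. Each clone was kept in plain medium, or was treated over 6 h with IFN-gamma (50 ng/mL) plus LPS (10 ng/mL). The labels do not say whether KO 1A and 1B descend from 1 clone, so the comparison was made with these clones apart and again with their counts summed into 1 clone.

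LPS, a component of the bacterial outer membrane, is sensed by Toll-like receptor 4 and activates NF-kB and interferon regulatory factors. IFN-gamma is a lymphocyte cytokine, and together with LPS it drives macrophages to make chemokines, cytokines and nitric oxide. Nampt makes nicotinamide mononucleotide, the precursor from which mammalian cells salvage NAD. A strong secretory load in the endoplasmic reticulum (ER) induces chaperones through the ATF6, XBP1 and PERK pathways.

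Total counts per library ran from 10624591 to 14388590, and mitochondrially encoded genes took 1.24% to 2.53% of them. Macrophage markers had counts in all libraries but were not all high, with Csf1r at 263 to 2987 CPM (counts scaled to a common library total), Lyz2 at 2080 to 16227 CPM and Spi1 at 156 to 262 CPM. Adgre1 lay at 61.6 to 447 CPM in WT and 14.6 to 64.6 CPM in KO libraries. Fcgr3 lay at 5.91 to 177 CPM in WT libraries and, in KO clones 1A, 1B and 2, at 0.703, 1.42 and 2.82 CPM in medium and 9.60, 11.3 and 12.7 CPM under stimulation. Of 54 markers of other cell types 10 were in the table, and their summed level was 17.8 to 142 CPM in WT medium, 52.3 to 269 CPM in WT stimulated, 37.6 to 62.2 CPM in KO medium and 115 to 264 CPM in KO stimulated libraries. No neutrophil, fibroblast or epithelial marker was in the table. The KO clones also differed from the WT clones in genes far from Nampt. Levels from here on are CPM scaled by TMM factors. The Y-linked Uty lay at 52.7 to 72.2 CPM in WT libraries and at 0.205 to 1.73 CPM in KO libraries, and the X-linked Kdm6a at 51.0 to 64.8 CPM against 1.15 to 5.87 CPM. The deletion and the origin of the clones therefore cannot be told apart in any result below.

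With 6 separate clones, the response differed between genotypes in 40 of 12231 genes tested (0.327%; edgeR quasi-likelihood test with clone as a block, Benjamini-Hochberg adjusted p below 0.05). It was higher in KO clones for 20 genes (0.164%) and lower for 20 (0.164%). Among the higher genes were the chemokine genes Ccl3, Ccl4 and Ccl9, 5 genes of ER protein folding led by Herpud1 and Manf, and Hmox1. Among the lower genes were Nampt, the vesicle fusion gene Stx3, the TRAF6 adaptor gene Tifa and the receptor genes Tlr13 and P2rx7. The absolute interaction of the 40 genes ran from 0.70 to 2.68 on the log2 scale, with a median of 1.14, and 26 of them passed a 2-fold difference.

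With the counts of KO 1A and 1B summed, edgeR called 0 of 12355 genes, while 965 (7.81%) had an unadjusted p below 0.05, against 1418 (11.6%) with 6 clones. The smallest adjusted p was 0.0947, shared by Nampt, Ccl3, Tifa and Hmox1. All 40 genes kept the sign of their difference and an unadjusted p below 0.05, their adjusted p ran from 0.0947 to 0.252, and their estimates were 0.934 to 1.07 times those with 6 clones. DESeq2 on the summed counts called 80 genes, 46 higher and 34 lower, and all 40 were among them. With all WT clones in the fit, the 40 calls of edgeR were thus lost when KO 1A and 1B were summed, while the estimates differed little. Without WT 1, WT 2 or WT 3, the fit on summed counts called 4, 0 and 5 of the 40.

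KO 1A and 1B had the most alike responses of any clone pair. Over 9845 genes at 5 CPM or more, the SD of the response difference between KO 1A and 1B was 0.225 on the log2 scale. It was 0.326 for KO 1A against KO 2 and 0.346 for KO 1B against KO 2. Pairs of WT clones gave 0.469 to 0.500, and pairs of a WT and a KO clone 0.392 to 0.536. The pairs across genotypes thus overlapped the pairs within WT, and the pairs within KO were below both. For the 40 called genes, KO 1A, KO 1B and KO 2 each lay outside the range of the WT responses, on the same side. That the calls used these same responses limits what this adds.

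**Figure D1:**
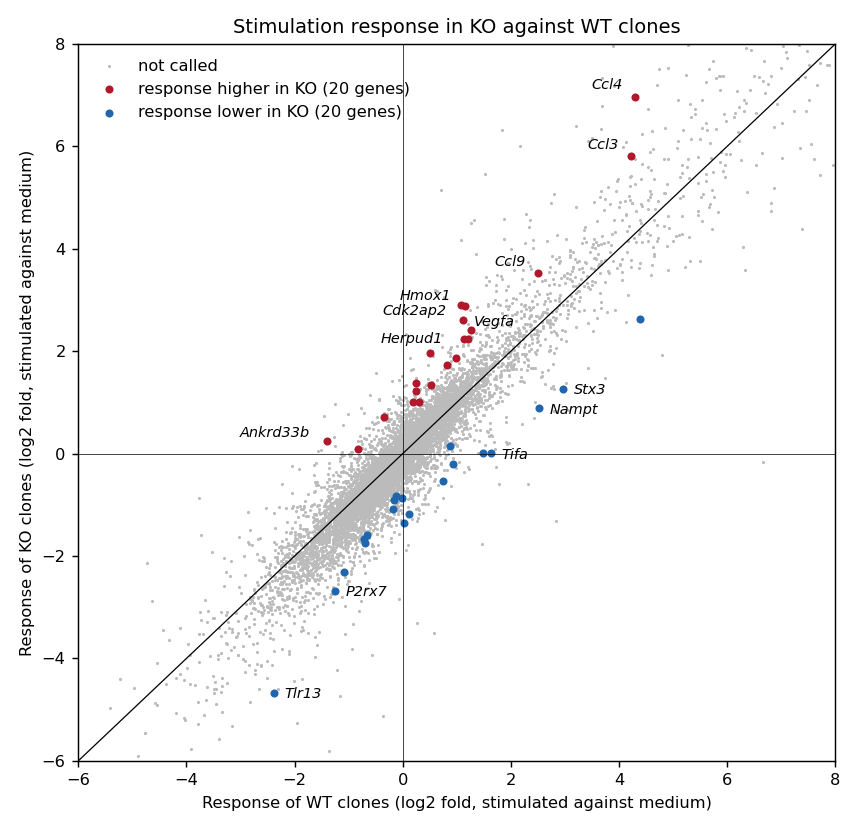
Response of KO clones (y axis) against response of WT clones (x axis), each as log2 fold of stimulated against medium from the fit with 6 clones. Each point is 1 gene, coloured points are the 40 genes called in the interaction, the diagonal marks equal responses, and 103 genes lie outside the axes; most coloured points lie off the diagonal but on the same side of 0 in both genotypes.

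Of the 40 genes, 17 were raised more in KO clones, 10 were lowered more in KO clones and 6 were raised less in KO clones, by the sign of their estimates. For the other 7 the estimated responses had opposite signs, with 3 higher and 4 lower in KO clones. Dtx4 and Lrrc8c passed the test in both genotypes in opposite directions, beside 10 of all genes tested (0.0818%). Of the 40, 32 passed the test of the WT response, beside 61.2% of all genes tested, and 34 that of the KO response, beside 66.1%. Clone responses did not overlap between genotypes for any of the 40 genes. The genes were called on the same libraries, so this adds no separate support. By comparison, 2212 of all genes tested (18.1%) had responses that did not overlap, 1011 (8.27%) with the KO clones above and 1201 (9.82%) with the KO clones below.

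A difference in response can arise from the level in medium, under stimulation, or both. The stimulated levels of WT and KO clones did not overlap for 32 of the 40 genes, and the medium levels did not overlap for 13. Overlap of levels was not counted over all genes tested, so these counts have no background to be read against. Among genes with a higher response in KO clones, 10 overlapped in medium and stood above all WT clones when stimulated: Ccl4, Cdk2ap2, Creld2, Dtx4, Herpud1, Hyou1, Manf, Mthfd2, Pdia4 and Vegfa. Ccl9, Crybg1 and Ppm1l stayed below all WT clones in both conditions. Among genes with a lower response, 13 overlapped in medium and stood below all WT clones when stimulated, including Nampt, Stx3, P2rx7 and Tlr13. The median absolute gap between genotypes over the 40 genes was 0.35 in medium and 0.87 under stimulation on the log2 scale. The gap was larger under stimulation for 28 of the 40, beside 58.2% of all genes tested.

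Nampt (ENSMUSG00000020572, GRCm38 chr12:32819545-32853349, plus strand) lost most of its induction in KO clones. In medium it lay at 137, 119 and 228 CPM in WT 1, 2 and 3 and at 178, 194 and 179 CPM in KO 1A, 1B and 2. After stimulation it lay at 869, 797 and 1025 CPM in the WT clones and at 356, 347 and 316 CPM in the KO clones. The medium levels overlapped, and every stimulated KO library was below every stimulated WT library. Nampt rose 5.75-fold in WT clones and 1.85-fold in KO clones. The interaction was -1.64 ± 0.16 (log2 ± SE, edgeR adjusted p = 0.0171), and with KO 1A and 1B summed it was -1.65 ± 0.19 (adjusted p = 0.0947).

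Gdap10, a noncoding RNA gene within the span of Nampt on the same strand (chr12:32821872-32826904, no shared exon), showed another pattern. In medium it lay at 13.1, 13.2 and 14.1 CPM in WT clones and at 0.600, 1.28 and 0.164 CPM in KO clones, and after stimulation at 73.9, 92.7 and 77.1 CPM against 4.91, 6.84 and 1.75 CPM. Every KO library was below every WT library in the same condition. Its response was 2.58 ± 0.12 in WT and 2.71 ± 0.23 in KO clones on the log2 scale, and the interaction of 0.13 ± 0.25 did not pass the test (edgeR adjusted p = 0.921). On the log2(CPM + 1) scale, which compresses levels near 1 CPM, the KO responses of Gdap10 were below all WT responses, and limma gave -0.86 (adjusted p = 0.156). Among the 27 tested genes of NAD synthesis and use, edgeR called Nampt alone, beside 0.164% of all genes called lower. In 2 genes of the list all KO responses lay above all WT responses and in 4 below, beside 8.27% and 9.82% of all genes. The median interaction of the list was -0.12 against -0.01 over all genes tested. Parp12, an interferon-inducible mono-ADP-ribosyltransferase, was next by p, at 0.62 ± 0.14 (edgeR adjusted p = 0.122), and DESeq2 called it too.

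**Figure D2:**
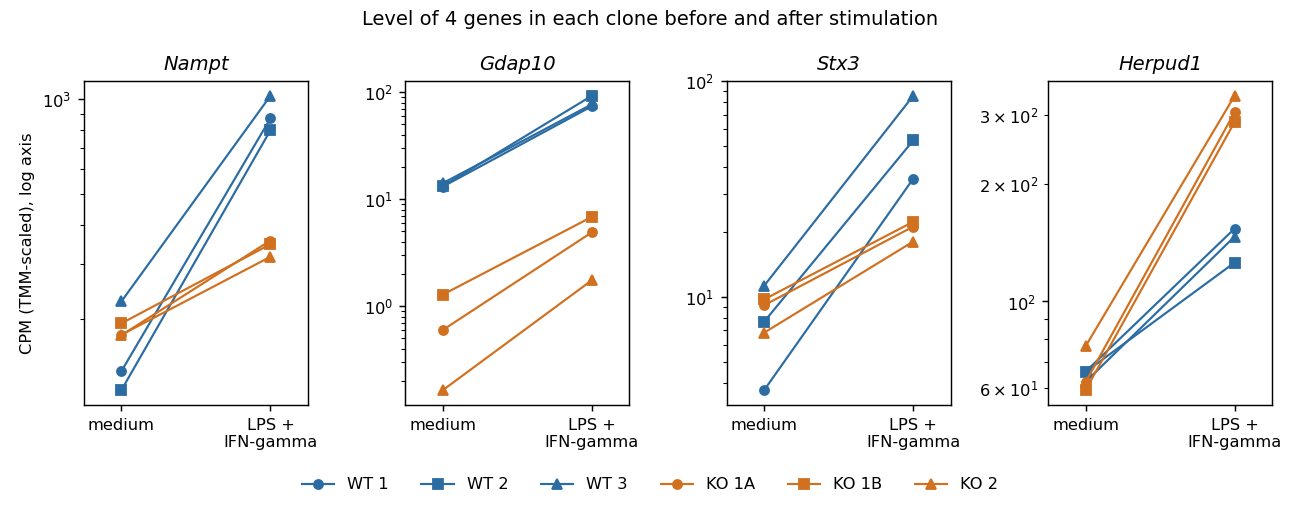
Level (CPM, log axis) of Nampt, Gdap10, Stx3 and Herpud1 in medium and after LPS with IFN-gamma, 1 line per clone (WT 1 to 3 in blue, KO 1A, 1B and 2 in orange). Nampt and Stx3 overlap in medium and part under stimulation, with KO clones low; Gdap10 is apart in both conditions with near-parallel lines; Herpud1 overlaps in medium and is high in stimulated KO clones.

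Stx3 (chromosome 19), a syntaxin that mediates vesicle fusion, had nearly the same loss of induction as Nampt. It lay at 3.69, 7.67 and 11.3 CPM in WT medium and 9.15, 9.74 and 6.82 CPM in KO medium. Under stimulation it reached 35.3, 53.1 and 85.5 CPM in WT clones and 21.2, 22.3 and 18.1 CPM in KO clones, so the groups overlapped in medium alone. The interaction was -1.71 ± 0.17 (edgeR adjusted p = 0.0171), and -1.68 ± 0.20 with KO 1A and 1B summed (adjusted p = 0.102).

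Tifa (chromosome 3) encodes an adaptor that recruits TRAF6 to activate NF-kB. It went from 5.22 to 17.5, from 21.3 to 61.7 and from 10.9 to 34.2 CPM in WT 1, 2 and 3. In KO 1A, 1B and 2 it went from 13.9 to 12.5, from 9.47 to 11.8 and from 19.6 to 17.9 CPM. Levels overlapped in both conditions, because the WT clones differed widely, while the 3 WT responses of 1.58, 1.49 and 1.56 (log2 of CPM + 1) were almost equal and the KO responses lay near 0. Tifa rose in WT clones (1.63 ± 0.13, edgeR adjusted p = 5.97e-06) and did not pass the test in KO clones (0.01 ± 0.13, adjusted p = 0.968). The interaction was -1.62 ± 0.18 (edgeR adjusted p = 0.0171; 0.0947 with KO 1A and 1B summed).

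Inpp1, an inositol polyphosphate phosphatase gene, followed the same form. It lay at 28.5, 18.7 and 26.5 CPM in stimulated WT clones and at 18.0, 18.1 and 18.1 CPM in stimulated KO clones, from 7.82 to 9.24 CPM and 17.1 to 19.6 CPM in medium. KO clones were above all WT clones in medium and below them under stimulation. The response was 1.49 ± 0.16 in WT and 0.01 ± 0.15 in KO clones (interaction -1.48 ± 0.22, edgeR adjusted p = 0.0401; 0.212 with KO 1A and 1B summed). Lasp1, an actin-binding LIM and SH3 protein gene, rose in WT clones (0.93 ± 0.10) and had a response of -0.20 ± 0.10 in KO clones (interaction -1.13 ± 0.14, edgeR adjusted p = 0.0247; 0.172 summed). Its levels were also lower in all KO libraries, at 29.2 to 46.1 CPM against 85.2 to 288 CPM. Lrrc8c, a subunit of volume-regulated anion channels, rose in WT clones (0.74 ± 0.14) and fell in KO clones (-0.54 ± 0.14), with an interaction of -1.28 ± 0.19 (edgeR adjusted p = 0.0401; 0.212 summed). Rps6ka3, the gene of the kinase RSK2, was named after its values were seen; it rose in WT clones (0.87 ± 0.08) and not in KO clones by the test (0.14 ± 0.08, edgeR adjusted p = 0.148).

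P2rx7 and Tlr13 were lowered by stimulation in both genotypes, and more in KO clones. P2rx7, the ATP-gated channel that triggers the NLRP3 inflammasome, lay at 39.5, 49.1 and 37.5 CPM in WT medium and 36.3, 35.7 and 40.8 CPM in KO medium. Stimulated WT clones held 19.5, 18.5 and 14.7 CPM and stimulated KO clones 5.22, 6.45 and 5.91 CPM. The medium levels overlapped and the stimulated levels did not. The interaction was -1.42 ± 0.18 (edgeR adjusted p = 0.0247; 0.172 summed).

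Tlr13, an endosomal receptor for bacterial ribosomal RNA, lay at 90.6, 215 and 52.0 CPM in WT medium and 18.7, 17.3 and 68.4 CPM in KO medium. After stimulation it lay at 24.9, 34.2 and 7.98 CPM in WT clones and at 1.02, 0.489 and 2.52 CPM in KO clones. Stimulated KO clones were all below the WT clones, on few reads, and the interaction of -2.28 ± 0.33 was the lowest of the 40 genes (edgeR adjusted p = 0.0401; 0.172 summed). Tifa and Tlr13 were the only edgeR calls among 36 tested genes of Toll-like receptor and interferon signalling. Both were lower, beside 0.164% of all genes tested. In 1 gene of the list all KO responses lay above all WT responses and in 6 below, beside 8.27% and 9.82% of all genes. The median interaction of the list was -0.07. Tlr4, the LPS receptor itself, stood at -0.68 ± 0.15 (edgeR adjusted p = 0.102, called by DESeq2), with all KO responses below all WT responses.

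The other named genes that fell further in KO clones, or fell only there by the sign of their estimates, include a kinase, a phosphatase and a transcription factor. Mknk2, the kinase that phosphorylates eIF4E, went from 115 to 137 CPM in WT medium to 62.9 to 99.0 CPM, and from 113 to 121 CPM in KO medium to 34.0 to 36.5 CPM (interaction -1.06 ± 0.14, edgeR adjusted p = 0.0247; 0.172 summed). Klf10, a repressor induced by TGF-beta, had responses of -1.09 ± 0.13 in WT and -2.32 ± 0.14 in KO clones (interaction -1.23 ± 0.19). Phlpp1, a phosphatase of Akt, fell in KO clones (-1.36 ± 0.16) and had a response of 0.01 ± 0.16 in WT clones. Fam69a had an interaction of -1.31 ± 0.19, but its exons overlap the antisense gene Rpl5, and without stranded counts its reads cannot be told from those of Rpl5. Ctsd, a lysosomal protease gene, fell in KO clones (-0.82 ± 0.08; interaction -0.70 ± 0.11) and shares exons with Gm49369 on the same strand, which leaves its count uncertain. Ctsd was the only edgeR call among 27 lysosome genes, beside 0.164% of all genes called lower. Of these 27, 8 had KO responses below all WT responses and 2 above, beside 9.82% and 8.27% of all genes.

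Ccl3, Ccl4 and Ccl9 encode CC chemokines that draw monocytes and other leukocytes, and all of them rose further in KO clones. Ccl4 (chromosome 11) lay at 23.9, 6.42 and 7.84 CPM in WT medium and at 2.92, 3.04 and 6.50 CPM in KO medium. Under stimulation it reached 395, 97.6 and 235 CPM in WT clones and 507, 410 and 598 CPM in KO clones, all above the WT clones. The interaction of 2.68 ± 0.31 was the highest of the 40 (edgeR adjusted p = 0.0257; 0.172 with KO 1A and 1B summed).

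Ccl3 lay beside Ccl4 on chromosome 11 and parted in medium. Its medium levels were 194, 58.2 and 58.2 CPM in WT clones and 30.8, 42.4 and 39.8 CPM in KO clones. Its stimulated levels of 3406, 1128 and 1094 CPM in WT clones overlapped the 1925, 1775 and 2663 CPM of KO clones. The interaction was 1.59 ± 0.17 (edgeR adjusted p = 0.0171), and 1.64 ± 0.16 with KO 1A and 1B summed (adjusted p = 0.0947).

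Ccl9 had a higher response but lower levels in KO clones throughout. It went from 351, 407 and 317 CPM to 1832, 2599 and 1708 CPM in WT clones, and from 43.6, 58.6 and 109 CPM to 560, 542 and 1409 CPM in KO clones. Every KO library was below every WT library of the same condition, and the interaction was 1.03 ± 0.16 (edgeR adjusted p = 0.0401; 0.172 summed). These were the only edgeR calls among 16 chemokine genes (3 higher, 0 lower, beside 0.164% of all genes each way), whose median interaction was 0.57 against -0.01 over all genes; 7 had KO responses above all WT responses and 1 below, beside 8.27% and 9.82% of all genes. Cxcl10, the interferon-induced CXCR3 ligand, had stimulated levels of 680, 333 and 1011 CPM in WT and 1174, 1099 and 1259 CPM in KO clones. All KO clones were above all WT clones, and its interaction of 1.85 ± 0.39 did not pass the test (edgeR adjusted p = 0.134). DESeq2 called 4 chemokine genes higher, Cxcl10 among them, and 1 lower, Cxcl14, beside 110 higher and 96 lower of 9859 genes tested. With limma on the clone responses 4 were called higher, Ccl17 among them, and 0 lower, beside 21 and 22 of 12231.

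Among the lists, genes of protein folding in the ER held the largest share with KO responses above all WT responses. Of 29 tested, edgeR called 5 higher in KO clones and 0 lower, beside 0.164% of all genes each way. These were Herpud1, Manf, Creld2, Pdia4 and Hyou1, of which Pdia4 and Hyou1 lie outside the naming rule. DESeq2 called 14 of the list, all higher, beside 110 higher of 9859 genes tested. With limma on the clone responses 6 were called, all higher, beside 21 higher of 12231. In 25 of the 29 all KO responses lay above all WT responses and in 0 below, beside 8.27% and 9.82% of all genes. The median interaction was 0.59 on the log2 scale, with 23 of 29 higher at an unadjusted p below 0.05 when KO 1A and 1B were summed, beside 3.48% of all genes. The median response over the list was 0.34, 0.29 and 0.30 in WT 1, 2 and 3 and 0.82, 0.73 and 0.80 in KO 1A, 1B and 2, so each KO clone was above each WT clone.

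Herpud1, a membrane protein of ER-associated degradation, lay at 66.1, 65.9 and 62.2 CPM in WT medium and 62.1, 59.2 and 76.7 CPM in KO medium. Under stimulation it reached 154, 126 and 147 CPM in WT clones and 306, 289 and 337 CPM in KO clones. The groups overlapped in medium and parted under stimulation, with an interaction of 1.11 ± 0.13 (edgeR adjusted p = 0.0171; 0.172 summed). Manf, a secreted ER stress-induced factor, overlapped in medium and reached 323, 241 and 314 CPM in stimulated WT clones and 480, 440 and 541 CPM in stimulated KO clones (interaction 0.93 ± 0.11, edgeR adjusted p = 0.0171; 0.172 summed). Creld2, a disulfide isomerase-like protein, reached 174, 118 and 153 CPM against 226, 222 and 295 CPM (interaction 0.90 ± 0.12, edgeR adjusted p = 0.0247; 0.172 summed). For both genes every stimulated KO library was above every stimulated WT library.

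Pdia4, a disulfide isomerase, had a response of 0.19 ± 0.08 in WT and 1.01 ± 0.08 in KO clones, and Hyou1, a chaperone of the Hsp70 family, of 0.29 ± 0.07 and 1.01 ± 0.07. The uncalled members closest to the threshold were Pdia6 (0.65 ± 0.11, edgeR adjusted p = 0.0516), Dnajc3 (0.65 ± 0.11, 0.0602) and Hspa5 (0.72 ± 0.13, 0.0625). Hspa5 encodes BiP, the main ER chaperone. The ER stress regulators themselves stood at 0.61 ± 0.14 for Atf6 and 0.37 ± 0.10 for Xbp1 (edgeR adjusted p = 0.122 and 0.194). For both, the responses of KO clones were above those of WT clones. Atf6 had a response of -0.51 in WT and 0.11 in KO clones, and Xbp1 of 0.39 and 0.76. Ern1, the gene of IRE1, stood at 0.18 ± 0.21 with overlapping responses (edgeR adjusted p = 0.827). Of these genes edgeR called none, and DESeq2 called Atf6.

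The promoters of the list were read for letters that ER stress factors are known to bind. How often the letters occur describes genes grouped by function, and a link to the response was not tested. RefSeq (GRCm38.p6) gave the 250 bases before the start for 22 of the 29 genes. The ER stress element, read as CCAAT and CCACG with 9 bases of any kind between them on either strand, was in 8 of them (36.4%), beside 35 of 27025 RefSeq promoters (0.13%). The sites of Hspa5, Pdia6, Dnajc3 and Creld2 are shown with the 30 bases on each side because these genes hold the element and lie at or near the threshold. Herpud1 and Pdia4, which were also called, have a promoter without this element. The element is in capitals, reverse complemented in Creld2.
Hspa5 (chr2:34771995-34772073, plus strand): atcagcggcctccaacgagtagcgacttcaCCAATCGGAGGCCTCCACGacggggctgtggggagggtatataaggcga
Pdia6 (chr12:17266461-17266539, plus strand): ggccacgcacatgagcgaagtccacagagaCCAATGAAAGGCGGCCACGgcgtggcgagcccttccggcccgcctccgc
Dnajc3 (chr14:118937797-118937875, plus strand): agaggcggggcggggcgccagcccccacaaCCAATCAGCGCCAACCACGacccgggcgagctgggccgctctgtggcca
Creld2 (chr15:88819490-88819568, plus strand): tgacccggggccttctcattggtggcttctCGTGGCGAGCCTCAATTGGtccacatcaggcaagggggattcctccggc

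Herpud1 held the related element II, read as ATTGG and CCACG with 1 base between them, found in 10 of 27025 promoters (0.037%), and a match to the ATF4 composite letters TGATGCAA, found in 248 (0.918%). These are shown because Herpud1 had the highest interaction of the ER list; the matched letters are in capitals, and those of ATF4 are on the opposite strand.
Herpud1 element II (chr8:94386347-94386417, plus strand): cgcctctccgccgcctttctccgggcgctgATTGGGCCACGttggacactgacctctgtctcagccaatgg
Herpud1 ATF4 letters (chr8:94386287-94386354, plus strand): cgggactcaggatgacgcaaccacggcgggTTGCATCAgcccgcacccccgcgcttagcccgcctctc

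The 8 genes with the ER stress element had interactions of 0.25 to 0.90, with a median of 0.65, and KO responses above all WT responses in 8 of 8. The 14 genes with a promoter but without it had interactions of 0.04 to 1.11, with a median of 0.54, and KO responses above in 11. The ranges overlapped, and the difference was not tested. Promoters were found for 28 of the 40 called genes, and the Nampt window held none of the letters given above. Of the 13 called higher with a promoter, 1 held the ER stress element (Creld2), 1 element II and 1 the ATF4 letters (both Herpud1). Over all tested genes with a promoter the shares were 0.146%, 0.0786% and 0.674%. In all, 6 motifs were read. The gamma-activated site, interferon response and NF-kB letters were in 0, 2 and 1 of the 13 called higher with a promoter. Their shares over all tested genes with a promoter were 7.15%, 3.47% and 1.83%. Of the 15 called lower with a promoter, 0 held any letters of the 6 motifs.

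Genes of the integrated stress response and amino acid supply, many of them targets of ATF4, showed the same form. Of 35 tested, edgeR called 2 higher and 0 lower, beside 0.164% of all genes each way. DESeq2 called 9, all higher, beside 110 higher of 9859 genes tested. In 23 all KO responses lay above all WT responses and in 0 below, beside 8.27% and 9.82% of all genes. The median interaction was 0.50. The median response of the list was 0.46, 0.07 and 0.37 in WT 1, 2 and 3 and 0.96, 0.75 and 0.92 in KO 1A, 1B and 2. With KO 1A and 1B summed, 20 were higher at an unadjusted p below 0.05, beside 3.48% of all genes.

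Mthfd2, a mitochondrial folate enzyme, rose from 105, 141 and 193 CPM to 157, 171 and 313 CPM in WT clones and from 149, 145 and 142 CPM to 403, 346 and 358 CPM in KO clones. It overlapped in medium and was above all WT clones when stimulated (interaction 0.82 ± 0.13, edgeR adjusted p = 0.05 as rounded; 0.242 summed). Vegfa, the endothelial growth factor, reached 50.1, 36.5 and 19.2 CPM in stimulated WT clones and 78.5, 68.3 and 185 CPM in stimulated KO clones (interaction 1.49 ± 0.24, edgeR adjusted p = 0.05 as rounded; 0.212 summed). Asns, asparagine synthetase, stood at 0.72 ± 0.14 (adjusted p = 0.0834), Atf4 at 0.72 ± 0.18 (0.148) and Ddit3, the gene of CHOP, at 1.28 ± 0.33 (0.167). For these 3 genes the KO responses were above all WT responses; DESeq2 called them and edgeR did not.

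Hmox1, which degrades heme and is induced by oxidants through NRF2, had the second highest interaction of the 40 called genes by estimate. It went from 403, 1181 and 226 CPM to 1078, 2522 and 373 CPM in WT clones, and from 82.0, 125 and 345 CPM to 764, 782 and 2447 CPM in KO clones. Levels overlapped in both conditions and the responses did not. Hmox1 rose by 1.08 ± 0.14 in WT and 2.90 ± 0.15 in KO clones (interaction 1.82 ± 0.20, edgeR adjusted p = 0.018; 0.0947 summed). It was the only edgeR call among 17 NRF2 targets, beside 0.164% of all genes called higher. DESeq2 called 3 of these targets, Gclm, Hmox1 and Pgd, all higher, beside 110 higher of 9859 genes tested. In 5 targets all KO responses lay above all WT responses and in 0 below, beside 8.27% and 9.82% of all genes. The median interaction of the list was 0.29. Slc40a1, the iron exporter ferroportin and also named after its values were seen, rose by 1.22 ± 0.11 in WT and by 2.23 ± 0.11 in KO clones.

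Cdkn1a, the p53-induced cyclin-dependent kinase inhibitor p21, lay at 126, 123 and 125 CPM in WT medium and 84.9, 88.9 and 92.5 CPM in KO medium. Under stimulation it lay at 138, 141 and 166 CPM in WT clones and at 206, 221 and 194 CPM in KO clones. KO clones were below all WT clones in medium and above them under stimulation, with an interaction of 0.97 ± 0.12 (edgeR adjusted p = 0.0247; 0.198 summed). It was the only edgeR call of 20 p53 targets, beside 0.164% of all genes called higher. Of these targets, 12 had KO responses above all WT responses and 4 below, beside 8.27% and 9.82% of all genes. Among these, Gadd45a stood at 2.27 ± 0.45 and Sesn1 at -0.90 ± 0.19 (edgeR adjusted p = 0.0834 and 0.0995), so the list did not move 1 way.

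The remaining named genes with a higher response in KO clones were in none of the lists. Cdk2ap2, a CDK2-associated protein gene, overlapped in medium at 14.8 to 21.6 CPM and reached 27.5, 33.5 and 58.9 CPM in WT and 127, 112 and 147 CPM in KO clones (interaction 1.73 ± 0.22, edgeR adjusted p = 0.0247). Dtx4, a Deltex ubiquitin ligase gene, fell in WT clones (-0.34 ± 0.11) and rose in KO clones (0.72 ± 0.11). Ankrd33b fell in WT clones (-1.41 ± 0.17) and had a response of 0.25 ± 0.18 in KO clones. Crybg1, Ppm1l and Rusc2 had interactions of 1.16 ± 0.16, 1.46 ± 0.22 and 1.14 ± 0.17 (edgeR adjusted p = 0.0292, 0.0422 and 0.0401).

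**Figure D3:**
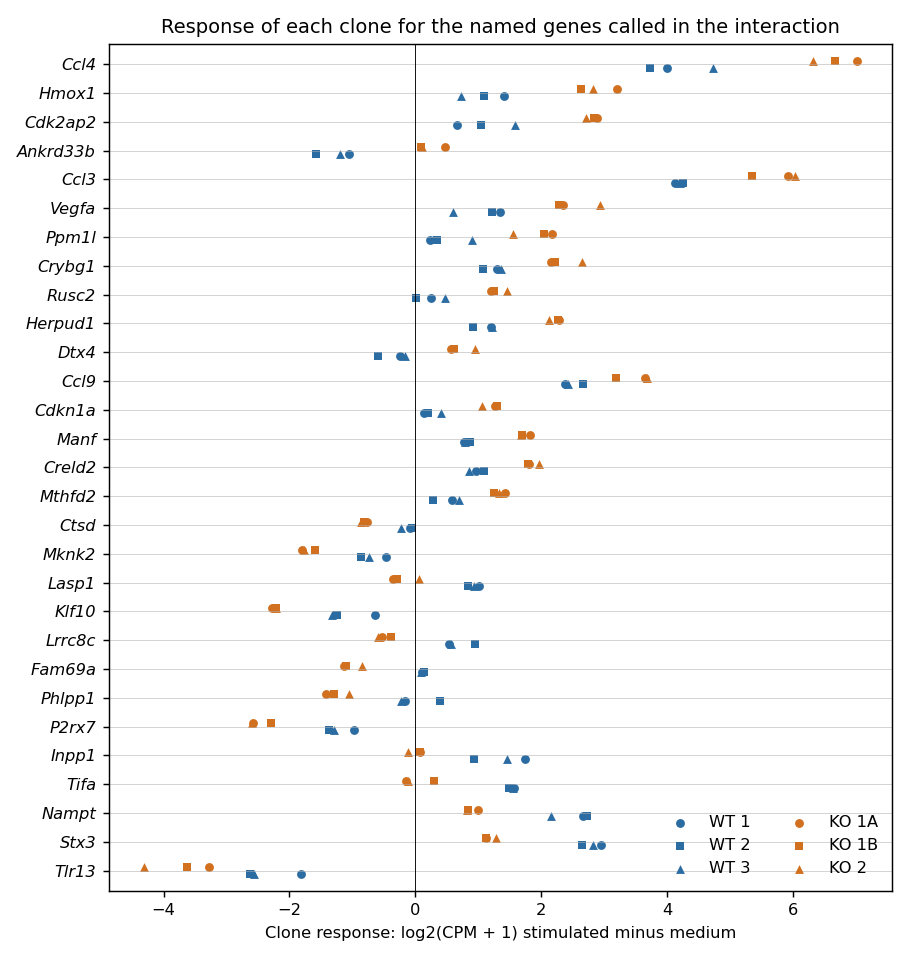
Response of each clone, as log2(CPM + 1) stimulated minus medium, for the 29 named genes called in the interaction (WT clones in blue, KO clones in orange, 1 symbol per clone). For every gene the orange and blue points do not overlap, which the naming rule required for most of these genes. KO 1A and 1B, shown as circle and square, lie close together in most.

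Nos2, Tnf, Il1b and Il6, all induced by the stimulus, did not pass the test of the interaction. Nos2, inducible nitric oxide synthase, reached 1121, 451 and 946 CPM in WT and 803, 848 and 1234 CPM in KO clones, with overlap (interaction 0.41 ± 0.53, edgeR adjusted p = 0.847). Tnf reached 1703, 1534 and 1349 CPM against 2007, 1756 and 2296 CPM, with KO clones above all WT clones under stimulation but overlapping responses (0.23 ± 0.19, edgeR adjusted p = 0.722). Il1b ranged from 393 to 3433 CPM in stimulated WT clones and from 556 to 1787 CPM in stimulated KO clones (0.02 ± 0.59, edgeR adjusted p = 0.997). Il6 was near 0 in medium and reached 24.5, 64.7 and 53.8 CPM in WT and 119, 75.0 and 125 CPM in KO clones. All KO clones were above the WT clones under stimulation, and so were their responses (interaction 1.84 ± 1.44, edgeR adjusted p = 0.703). A missed threshold does not show equal responses.

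Neither list of interferon-induced genes held a call. Of 43 type I interferon-stimulated genes edgeR, DESeq2 and limma called 0, and 10 had an unadjusted p below 0.05, all higher, beside 4.91% of all genes. In 8 the KO responses were above all WT responses and in 0 below, beside 8.27% and 9.82% of all genes, and the median interaction was 0.47. Bst2, which tethers budding virus, was nearest the threshold at 0.61 ± 0.15 (edgeR adjusted p = 0.14). Of 25 IFN-gamma GTPases and targets the same tools called 0, and the median interaction was 0.08. With edgeR 1 had an unadjusted p below 0.05, with a lower response, beside 6.69% of all genes. In 0 of the list all KO responses lay above all WT responses and in 3 below, beside 8.27% and 9.82% of all genes. The gene with the small p was Iigp1, an immunity-related GTPase, which reached 1962, 2660 and 2218 CPM in WT and 1236, 1331 and 1320 CPM in KO clones from about 1 CPM in medium. All stimulated KO clones were below the WT clones, and the interaction of -1.27 ± 0.28 did not pass the test (edgeR adjusted p = 0.113).

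The sterol, macrophage identity, oxidative phosphorylation, heat shock and proliferation lists held no edgeR call. The shares of all genes to read their counts against are 4.91% higher and 6.69% lower at an unadjusted p below 0.05, and 8.27% above and 9.82% below without overlap. DESeq2 called 110 higher and 96 lower of 9859 genes tested. Sterol and fatty acid synthesis had 0 calls of 30 genes by edgeR (10 at an unadjusted p below 0.05, all higher) and 2 by DESeq2, 8 with KO responses above and 0 below, and a median of 0.40, with Lss at 0.82 ± 0.17 (edgeR adjusted p = 0.0853). Macrophage identity genes had 0 calls of 30 by edgeR (4 higher and 9 lower at an unadjusted p below 0.05) and 3 by DESeq2, 4 with KO responses above and 9 below. Trem2, a lipid-sensing receptor of macrophages, went from 309, 486 and 267 CPM to 115, 195 and 71.2 CPM in WT clones and from 159, 156 and 288 CPM to 18.6, 26.8 and 49.4 CPM in KO clones. Its stimulated levels did not overlap, and its interaction was -1.17 ± 0.20 (edgeR adjusted p = 0.0568). Oxidative phosphorylation (31 genes), cytosolic heat shock proteins (14) and proliferation genes (40) had 0 calls by edgeR and DESeq2, 0, 0 and 2 genes at an unadjusted p below 0.05, and medians of -0.01, 0.14 and -0.12.

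**Figure D4:**
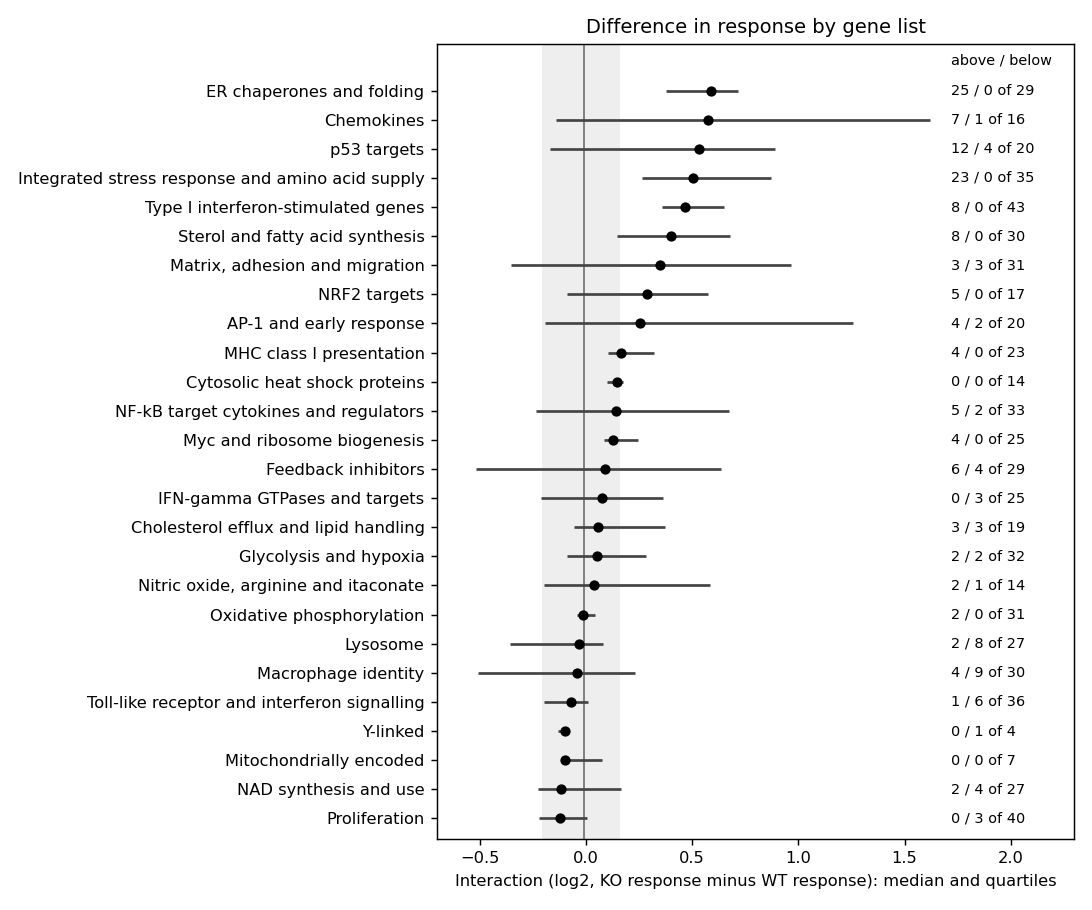
Median (point) and quartiles (line) of the interaction on the log2 scale for each gene list with at least 4 tested genes; the grey line and band give the median and quartiles of all genes tested, and the counts at the right give genes with all KO responses above or below all WT responses, of those tested. ER chaperones and the integrated stress response have 25 and 23 genes above and 0 below, while oxidative phosphorylation and proliferation lie on the median of all genes or below it.

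Leaving out 1 clone at a time showed which clones the 40 calls rest on. Without WT 1, WT 2 or WT 3 the fit called 92, 36 and 198 genes, with 36, 22 and 39 of the 40 among them. Without KO 1A, KO 1B or KO 2 it called 0, 1 and 0, with 880 and 1127 genes at an unadjusted p below 0.05 where edgeR called 0. The fit then held 2 KO clones, as it did with KO 1A and 1B summed.

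**Figure D5:**
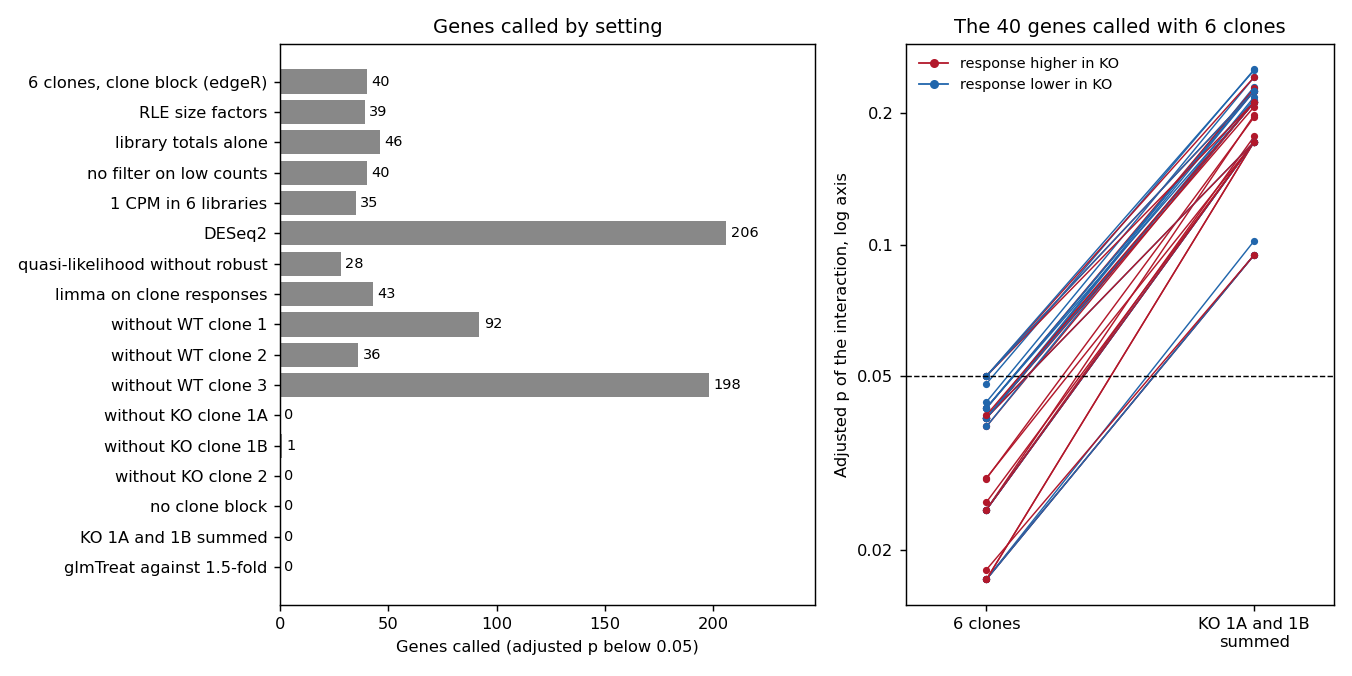
Left, number of genes called in the interaction under each setting (bars, adjusted p below 0.05). Right, adjusted p (log axis) of the 40 genes with 6 clones and with KO 1A and 1B summed, 1 line per gene; all 40 cross the dashed line at 0.05.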

How the data were processed

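RNA of 12 libraries was measured in 4 groups of 3 clones. The authors deposited 1 table of gene counts as whole numbers per Ensembl gene. Per the submitters' processing notes the build was mm10 (GRCm38) and DESeq2 was used, with no role given; the aligner, the counting tool and the strand setting were not given in the sources used. The table listed 12483 genes, of which GENCODE M21 named 12305. Where nothing says that clones are separate cultures of separate origin, p-values measure only the spread between these clones.

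Counts were fitted with edgeR 4.0.16 in R 4.3.3: filterByExpr (12231 genes kept, 252 left out), TMM factors, and robust quasi-likelihood with 1 term per clone and 1 stimulation term per genotype, which leaves 4 residual degrees of freedom. Summing KO 1A and 1B within each condition left 3, and 12355 genes. The SE of a log2 difference is its size over the root of the F statistic. The clone is a block because both libraries of a pair carry the same clone label; deviations from the group means in medium and under stimulation had a correlation of 0.632 (WT 1), 0.702 (WT 2), 0.640 (WT 3), 0.450 (KO 1A), 0.420 (KO 1B) and 0.599 (KO 2). KO 1A medium also correlated with KO 1B stimulated, at 0.434. Without the block edgeR called 0 genes. Fits were tested on simulated data whose libraries were drawn independently, so a shared origin of KO 1A and 1B was not simulated.

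Named genes were the 12 highest and 12 lowest called protein-coding genes with 5 CPM or more in 1 group and no overlap of clone responses, up to 3 called genes of each of 32 lists by p or else the gene with the smallest p, genes called in opposite directions, and a fixed set (Nampt, Gdap10, Nos2, Tnf, Il6, Il1b, Cxcl10, Iigp1, Arg1, Kdm6a). List members quoted beside these were chosen after their values were seen. The members and lists were chosen with earlier results of these data known. Alternatives used RLE factors, library totals, other filters, DESeq2 1.42.0, limma 3.58.1 on clone responses, glmTreat at 1.5-fold, and fits without 1 clone.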

Additional observations from a re-analysis of the deposited data

Results flagged for a closer look

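The test of the difference between the KO and WT responses itself passed for 29 of the named genes, and the values are the interaction on the log2 scale (edgeR with 6 clones). The response was lower in KO clones for Tlr13 -2.28, Stx3 -1.71, Nampt -1.64, Tifa -1.62, Inpp1 -1.48, P2rx7 -1.42, Phlpp1 -1.38, Fam69a -1.31, Lrrc8c -1.28, Klf10 -1.23, Lasp1 -1.13, Mknk2 -1.06 and Ctsd -0.70. It was higher in KO clones for Ccl4 2.68, Hmox1 1.82, Cdk2ap2 1.73, Ankrd33b 1.66, Ccl3 1.59, Vegfa 1.49, Ppm1l 1.46, Crybg1 1.16, Rusc2 1.14, Herpud1 1.11, Dtx4 1.06, Ccl9 1.03, Cdkn1a 0.97, Manf 0.93, Creld2 0.90 and Mthfd2 0.82. With KO 1A and 1B summed, each of these had the same sign and an unadjusted p below 0.05, and edgeR called 0 of them.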

How the results depend on the processing

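With 6 clones, the 40 calls became 206 with DESeq2 (110 higher, 96 lower, all 40 among them), 0 without the clone block (611 at an unadjusted p below 0.05), 0 with KO 1A and 1B summed and 0 against a 1.5-fold difference, and 0 to 198 without 1 clone. RLE factors, library totals, no filter, a filter of 1 CPM in 6 libraries, plain quasi-likelihood and limma gave 28 to 46 calls. With KO 1A and 1B summed, the 0 calls became 80 with DESeq2 and 0 to 15 without 1 clone: 11 without WT 1, 1 without WT 2 and 15 without WT 3. Summing on the same 12231 genes, a setting added after the data were seen, gave 0. None of the 29 named called genes changed sign under these settings. Of the uncalled named genes 6 did in at least 1 setting, each with an adjusted p above 0.05 there: Arg1, Nos2, Uty, Gdap10, Lck and Il1b. Of the 29 named called genes, all 29 lost the call with KO 1A and 1B summed, without the block, against 1.5-fold and without KO 1A or KO 2, and 28 without KO 1B. For low genes such as Arg1 and Kit, with medium levels under 1 CPM, counting error limits the estimate.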

Other observations

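Beyond the named genes, several called genes belonged to metabolism and cell growth and were named after their values were seen. Cpt1a, the carnitine palmitoyltransferase that admits fatty acids to mitochondria, went from 108, 115 and 67.7 CPM to 73.3, 73.9 and 38.6 CPM in WT clones and from 63.1, 65.3 and 88.5 CPM to 18.1, 20.9 and 34.7 CPM in KO clones (interaction -0.93 ± 0.15, edgeR adjusted p = 0.0436; 0.242 with KO 1A and 1B summed). Casp2, a caspase gene, fell in KO clones (-0.92 ± 0.08) and had a response of -0.16 ± 0.08 in WT clones. Gas2l3, a cytoskeletal linker gene, fell in KO clones (-0.86 ± 0.10) and had a response of -0.02 ± 0.09 in WT clones. Tm6sf1 and Slc25a45 had interactions of -0.94 ± 0.14 and -0.89 ± 0.15, and Sh3bgrl2 of 0.93 ± 0.15 (edgeR adjusted p = 0.0383, 0.05 and 0.05 as rounded).

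One called gene has no name in the annotation used. ENSMUSG00000029333 went from 15.9, 18.9 and 10.6 CPM to 211, 524 and 268 CPM in WT clones and from 37.1, 34.7 and 51.1 CPM to 222, 229 and 312 CPM in KO clones. KO clones were above all WT clones in medium, and the stimulated levels overlapped. Its interaction was -1.76 ± 0.25 (edgeR adjusted p = 0.0423), second lowest of the 40 by estimate.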
